A study of Mus musculus with 2 samples.

Results

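The cells described here are 120 single muscle stem cells of mouse that had been grown in medium with low glucose before their RNA was counted. They were all the wells of plate 2 that the deposited well sheet gives as low glucose, and each had at least 500 gene counts and at least 250 detected genes, with the ERCC spike-ins (synthetic RNAs added to the wells) left out. The series holds 457 wells on 2 plates, of which 456 met the same limits. The other kept wells are 121 grown in galactose on plate 2, and 113 grown in high glucose and 102 freshly isolated on plate 1.

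All cultured cells spent 96 h in DMEM that held 1 mM pyruvate, the growth factor bFGF at 2.5 ng/ml and 1% penicillin/streptomycin. Horse serum and fetal bovine serum were each at 10%, and extract of chick embryo was at 0.05%. Low glucose medium held 5 mM glucose, galactose medium 10 mM galactose and high glucose medium 25 mM glucose. The sources used here do not give the age, strain or genotype of the mice, nor how many there were. FACS placed the cells in 384-well plates, 1 barcode a well, and a modified CEL-Seq2 protocol, which tags the 3′ ends of polyadenylated RNA with the barcode of the well, was run in each well.

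Muscle stem cells, also called satellite cells, lie between the muscle fibre and its basal lamina and are quiescent in resting muscle. Once activated they divide as myoblasts, switch on the transcription factor MyoD and either differentiate into muscle or return to quiescence. Activated satellite cells take up glucose and raise glycolysis, whereas quiescent ones rely more on mitochondrial oxidation, and growing cells on galactose forces more of their ATP to come from mitochondria.

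The 120 wells held 1734279 gene counts in all, with a median of 13371 per well (range 2616 to 39631) over 4380 genes (1639 to 7336). Spike-in counts had a median of 259.5 per well, and gene counts per spike-in count (the gene to spike-in ratio), a measure of RNA captured per well, ran from 11.4 to 179 with a median of 47.7. Low glucose wells filled the 6 plate rows A to F, 18 to 22 wells a row, and row A was the shallowest with a median of 8155.5 counts. All 120 cells sit in 1 library, so cells are not replicates of the condition, no test between conditions was possible, and values below describe these wells. Plate 2 repeats no barcode, but 96 of the 120 low glucose barcodes are also used on plate 1.

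The pool of low glucose wells carried the genes that mark muscle stem cells and myoblasts. Myod1, the myogenic regulator of activated cells, stood at 801 CPM in the pool (counts scaled to a total of 1000000 gene counts). It ran from 0 to 2552 CPM over wells with a median of 674 CPM, and it was counted in 119 of 120 wells (99.2%, exact binomial 95% interval 95.4% to 99.98%). Myf5, its relative that marks committed satellite cells, stood at 370 CPM in 90.8% of wells. Pax7, the factor that defines satellite cells, was low at 54.8 CPM and was counted in 56 wells (46.7%, 37.5% to 56.0%), close to the 50.2% that Poisson counting at the pool level gives. CEL-Seq2 counts 3′ tags, so levels are not divided by transcript length.

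Transcripts of further muscle stem cell genes, most of them for surface proteins, ran from intermediate to very low levels. Cd34 stood at 287 CPM, the proteoglycan Sdc4 at 344 CPM and the laminin receptor subunit Itga7 at 132 CPM. The adhesion molecule Vcam1 (51.3 CPM), the cadherin Cdh15 (31.1 CPM) and the growth factor antagonist Spry1 (66.3 CPM) lay lower. Desmin (Des, 1.73 CPM), Chrdl2 (1.15 CPM) and the calcitonin receptor gene Calcr (1.73 CPM) had 2 or 3 counts each over all 120 wells, so they were at or under the floor of 3 counts. Myog was not analysed here.

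Of the 5 genes given as markers of these cells, Ass1, Lasp1 and Ccnd1 were higher here than in high glucose wells and Akr1b3 was lower. Argininosuccinate synthase (Ass1), an enzyme of arginine synthesis, stood at 111 CPM against 28.2 CPM in high glucose. The actin-binding protein gene Lasp1 stood at 366 against 144 CPM, and the G1 cyclin Ccnd1 at 205 against 98.0 CPM. Aldose reductase (Akr1b3), which reduces glucose to sorbitol, stood at 678 against 1261 CPM. In galactose wells, on the same plate, Ass1 was at 120 CPM, Lasp1 at 404 CPM, Ccnd1 at 242 CPM and Akr1b3 at 518 CPM. The high glucose wells are on the other plate, so plate and medium cannot be told apart in that comparison. On the shared plate most galactose wells lay outside rows A to F, so plate row and medium cannot be fully told apart either.

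Markers of other cell types were sparse. Of 10 immune markers 2 were in the table and summed to 2.88 CPM, with Fcer1g at 0. The 10 endothelial markers summed to 6.34 CPM, with Cdh5, Tie1, Cldn5, Emcn and Esam at 0. The 9 smooth muscle or pericyte markers summed to 76.7 CPM, with Rgs5 and Kcnj8 at 0. The 10 measured markers of differentiating muscle summed to 50.2 CPM, with Tnnt1, Tnnt3, Tnni1 and Myl1 at 0. The 6 measured fibro-adipogenic markers, which include Cd34, summed to 326 CPM, with Dlk1 and Ly6a at 0. At least 3 markers of another type were found in 1 well for fibro-adipogenic cells, 1 for smooth muscle or pericytes and 2 for differentiating muscle.

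Protein-coding genes held 70.6% of the counts and processed pseudogenes 20.8%, so genes with near-identical copies are split between entries. Gapdh, at 101 CPM, shares 41.7% of the 31-base words of its 3′ end with other genes and is uncertain for that reason. Among protein-coding genes outside the mitochondrial genome, beta-actin (Actb) led with 5011 CPM (exact Poisson 95% interval 4906 to 5118, counting error only). The actin-severing protein cofilin (Cfl1) followed with 4295 CPM, elongation factor Eef1a1 with 4218 CPM, the ferritin heavy chain Fth1 with 3895 CPM and the intermediate filament vimentin (Vim) with 3660 CPM. Hsp90ab1 stood at 3286 CPM, the lysosomal membrane protein Lamp1 at 3251 CPM, Rps2 at 3104 CPM (a gene with near-identical copies), the glycolytic enzyme pyruvate kinase (Pkm) at 3075 CPM and Eif5a at 2837 CPM.

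The next 10 were Actg1, Rplp0, Npm1, Hmox1, Ncl, Rack1, Eno1b (with a near-identical copy), Hsp90aa1, Eef2 and Cdkn1a, from 2700 down to 1956 CPM. Cdkn1a, the p53 target that encodes the cell cycle inhibitor p21, was counted in all 120 wells at 307 to 6689 CPM. The haem-degrading enzyme gene Hmox1 stood at 2349 CPM in the pool and ran from 161 to 8455 CPM over wells. All 20 genes had a count in every well. The 11 mitochondrial transcripts in the table summed to 12285 CPM, led by mt-Cytb (3095 CPM), mt-Nd1 (2339 CPM) and mt-Nd4 (2257 CPM), with mt-Nd6 lowest at 11.5 CPM.

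Detection moved with depth: 3593 genes were counted in at least 50% of wells and 111 in every well. After each well was thinned to 1000 counts, 196 genes were left in at least 50% of wells. Among 2381 protein-coding genes with a mean of at least 1 count per well, the share of wells with a count lay a median of 1.30 percentage points below the Poisson share, and 43 of them were missing from at least 12 more wells than Poisson counting gives. The secreted matrix protein gene Spp1 (osteopontin) was counted in 40.8% of wells (32.0% to 50.2%) against a Poisson share of 69.7%. The acetylcholine receptor subunit Chrna1 was counted in 58.3% against 80.8%, and the inducible heat shock gene Hspa1a in 46.7% against 68.2%.

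Cell-to-cell variation is given as the excess CV, the coefficient of variation left after Poisson counting error is taken off, with the well total as the scale. Deep wells weigh most in it. The median over the 2381 protein-coding genes was 0.279. The 17 spike-in species, which come from no cell, gave a median of 0.391 (0.336 to 0.459) on the same scale, the gene total. On this scale the species also take in the spread of the gene to spike-in ratio over wells (CV 0.53). Scaled to the spike-in total instead, they gave a median of 0.0557 and a highest value of 0.413, with a median of 0.184 for the 8 species at a mean of 1 to 5 counts. No spike-in species reached 0.5 on either scale. An excess CV of at least 0.5 was reached by 215 of the 2381 protein-coding genes (9.03%), and by 387 of 3083 genes of any type (12.6%). The genes just inside this limit were Gstm1, Gps2 and Prpf3 (0.503 to 0.505), and those just outside were Uggt1, Mettl13 and Nr1d1 (down to 0.499). The count rests in part on single wells and on their weights. With each gene's well farthest above expectation left out, 112 protein-coding genes stayed at 0.5 or more, and with equal weight per well 459 did.

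**Figure D1:**
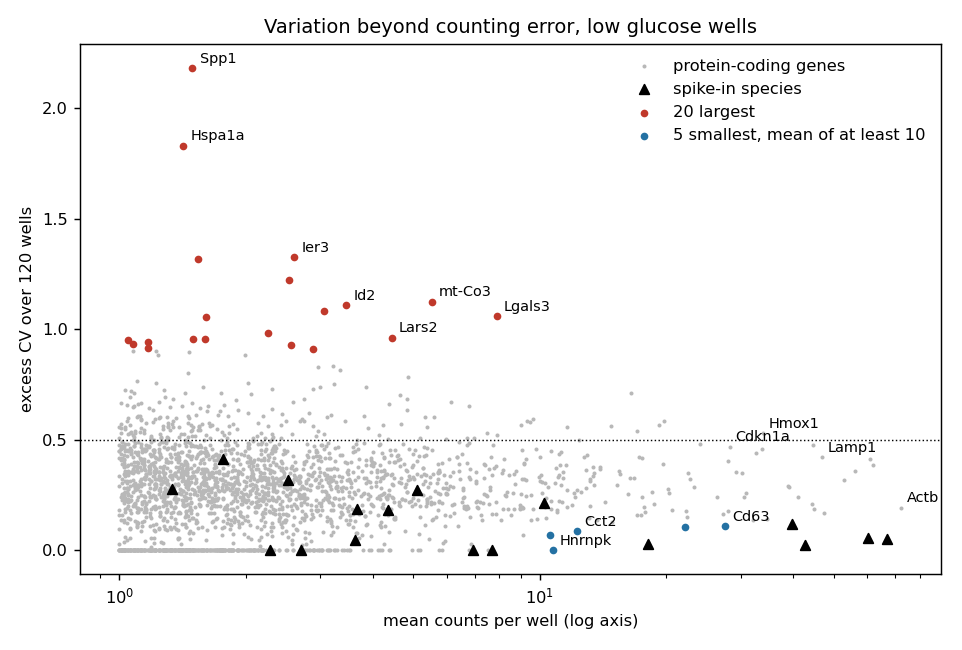
Excess CV over the 120 low glucose wells (vertical axis) against mean counts per well (horizontal log axis). Grey points are protein-coding genes, black triangles the 17 spike-in species scaled to the spike-in total, red points the 20 largest values and blue points the 5 smallest among genes with a mean of at least 10 counts. The dotted line marks 0.5, which no spike-in reaches, and Spp1 is highest at 2.18.

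Spp1 led with an excess CV of 2.18, at 103 CPM in the pool, a well median of 0 and a highest well of 1183 CPM. That well held 39 of its 179 counts, and without it the value was 1.49. Ier3, an immediate early gene that protects against cell death, reached 1.33 (well median 114 CPM, highest 1319 CPM). Gadd45b, a stress sensor, reached 1.32 (median 51.5 CPM, highest 2752 CPM). Lgals3, the lectin galectin-3, reached 1.06 at a pool level of 546 CPM and stood at 1000 CPM or more in 18 wells spread over all 6 plate rows, with a highest well of 4566 CPM. This limit was picked after the values were seen.

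Hspa1a and Hspa1b, 2 copies of the stress-inducible Hsp70 gene, had excess CVs of 1.83 and 1.08, and a few wells carried both. Hspa1b stood at a median of 163 CPM over the 120 wells, and 6 wells held 1022 to 2909 CPM, a limit of 1000 CPM set after the values were seen. The same 6 wells held 255 to 2381 CPM of Hspa1a, and the median of Hspa1a in the other 114 wells was 0. Hsp90aa1, the stress-responsive cytosolic Hsp90, had a median of 5225 CPM in those 6 wells and 1989 CPM in the other 114. Polyubiquitin Ubb, a gene with near-identical copies, had medians of 2662 and 908 CPM, and the constitutive Hsp70 gene Hspa8 of 1657 and 532 CPM. The integrated stress response phosphatase subunit Ppp1r15a (GADD34) had medians of 1986 and 539 CPM.

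The 6 wells came from 3 plate rows (A, E and F), had 3128 to 9782 counts each, and had gene to spike-in ratios of 12.8 to 39.1, all under the median of 47.7. The part of the low RNA content of these wells in the result was not tested. They held 4 to 24 Hspa1b counts each. Without them the excess CV of Hspa1a was 1.23 and that of Hspa1b 0.78. The wells were picked by their Hspa1b level, so lower values without them follow from that choice. The correlation of Hspa1a with Hspa1b was 0.86 over all 120 wells and 0.51 without the 6.

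The heat shock factor binds arrays of inverted GAA units, and the 250 bases upstream of the Hspa1b start hold 1 match to a pair of such units. Only the pair was searched for, and binding was not tested. The stretch below is chr17:34959239-34959488 on the minus strand (RefSeq, GRCm38.p6), shown because the gene marks those wells, with the match to GAANNTTC in capitals.
Hspa1b: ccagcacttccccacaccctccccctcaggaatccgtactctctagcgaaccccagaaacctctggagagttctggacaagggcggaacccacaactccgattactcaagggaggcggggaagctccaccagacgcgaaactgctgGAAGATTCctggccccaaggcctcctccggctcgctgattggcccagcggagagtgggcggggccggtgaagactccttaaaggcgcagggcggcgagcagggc
GAANNTTC and TTCNNGAA, each its own reverse complement, were searched on both strands. Either was present upstream of 12.8% of 32851 RefSeq starts. Hspa1a holds 1 match, and the 2 Ubb starts hold none in this window.

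Regulators of the myogenic programme were among the variable genes. All 4 of the list with a mean of at least 1 count per well reached 0.5, against 9.03% of protein-coding genes, with a median of 0.675. Id2 and Id1, which block MyoD-family factors from binding DNA, had 1.11 and 0.75. Id2 ran from 0 to 1809 CPM with a median of 115 CPM, and its highest well held 42 of its 416 counts, without which the value was 0.85. Myf5 had 0.60 and Myod1 0.56, and Myod1 had 0.50 without its highest well. Chrna1, a receptor gene of the differentiation list, had 0.98, and the cyclin Ccnd1 had 0.83. Of the 21 genes of the differentiation list in the table, only 3 had a mean of at least 1 count per well. The other 2 of these, the tropomyosins Tpm3 (0.24) and Tpm1 (0.29), lay near the median of all protein-coding genes.

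**Figure D2:**
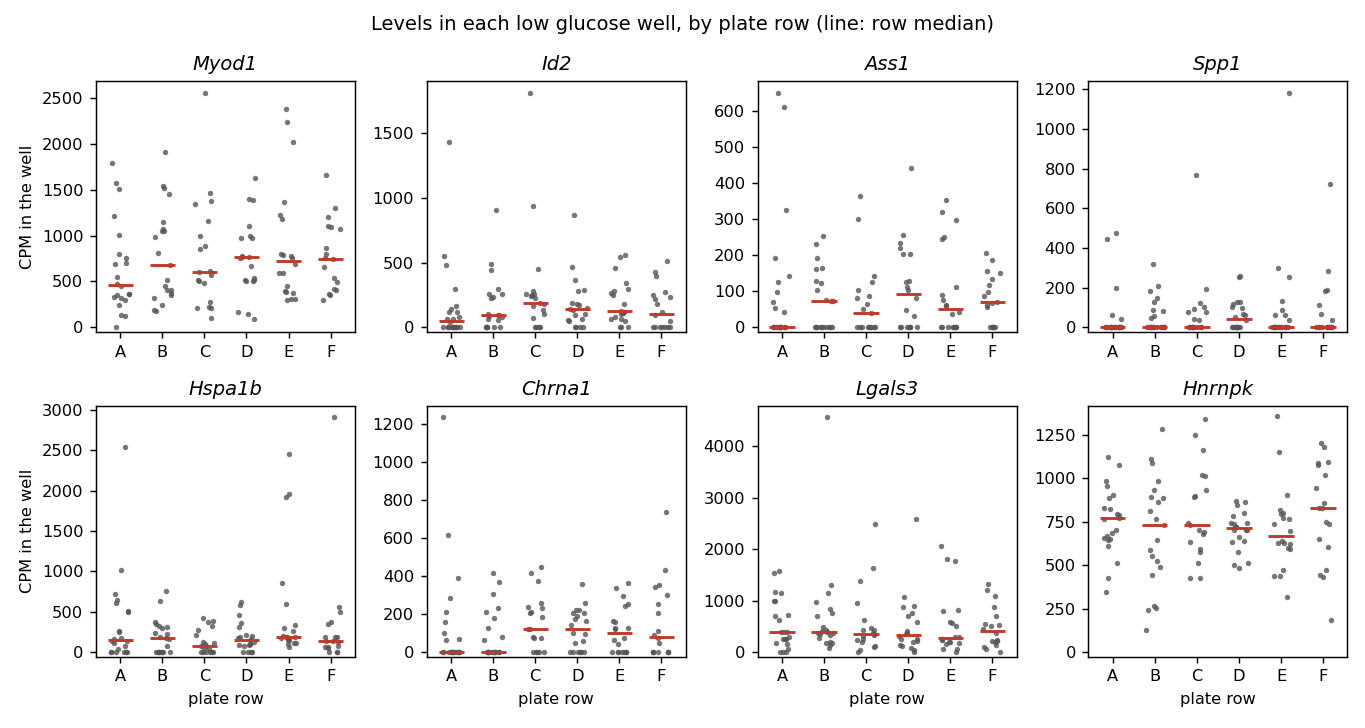
CPM of 8 genes (vertical axes) in each low glucose well, by plate row A to F (horizontal axes); points are wells and red lines are row medians. Hspa1b shows a few wells far above the rest, up to 2909 CPM, whereas Hnrnpk stays between 128 and 1357 CPM.

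Ass1 had 1.06, with a count in 68 of 120 wells, a well median of 54.6 CPM and row medians from 0 in row A to 93.7 CPM in row D. Those rows had medians of 8155.5 and 17585 counts per well. Ass1 had an r of 0.47 with the log2 gene to spike-in ratio and of 0.44 with the log2 well total. The part of depth or RNA content in its variation was not tested. The insulin receptor substrate Irs2 (0.96), the stress cytokine Gdf15 (0.95), the ATP receptor P2rx7 (0.94) and the creatine transporter Slc6a8 (0.93) followed. Lars2, the mitochondrial leucyl-tRNA synthetase, had 0.96, and the mitochondrial transcripts mt-Co3 and mt-Atp8 had 1.12 and 0.95. Gstp1 (0.92), Tmsb10 (0.91) and mt-Co3 have near-identical copies. With every well thinned to 2000 counts, Ass1, mt-Atp8, Gstp1 and Tmsb10 had an excess CV of 0, and Chrna1 had 0.33.

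Among genes with a mean of at least 10 counts per well, the RNA-binding protein Hnrnpk had the lowest excess CV, 0, on the scale of the well total. The initiation factor Eif4b had 0.07, the chaperonin subunit Cct2 had 0.08, Rps3a1 (with near-identical copies) had 0.10 and the tetraspanin Cd63 had 0.11. Scaled to spike-ins, Hnrnpk had 0.45, Eif4b 0.39, Cct2 0.43, Rps3a1 0.46 and Cd63 0.38. Against the 9.03% of all protein-coding genes at 0.5 or more, no member reached it among 37 nuclear genes of the respiratory chain (median 0.184), 29 proteasome genes (0.201), 13 genes of the TCA cycle (0.176), 14 lysosome and autophagy genes (0.336), 7 chaperonin genes (0.185) or 6 endoplasmic reticulum chaperones (0.324). Of 71 cytosolic ribosomal protein genes 4 reached it (5.63%), with a median of 0.320, and of 14 ribosome biogenesis genes 1 did, Dkc1 (0.59). Of 3 genes of cholesterol and fatty acid synthesis 2 did, Fasn (0.60) and Msmo1 (0.53).

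On the stress lists, to be read against the same 9.03%, 5 of 12 p53 targets reached 0.5: Gdf15, Trp53inp1 (0.70), Plk2 (0.59), Mdm2 (0.56) and Eda2r (0.53). Of 8 cytosolic heat shock genes 4 did, among them Hspa8 (0.58) and the small heat shock protein gene Cryab (0.59), while Hsp90ab1 had 0.17. Of 14 genes of the integrated stress response and amino acid synthesis 5 did: Ass1, Mthfd2 (0.90), Ddit3 (0.76), Asns (0.73) and Psat1 (0.56). Their inducer Atf4 had 0.28. Of 10 chemokine, cytokine and interferon genes 5 did, led by the chemokine Ccl2 (0.81) and the NF-kappaB inhibitor Nfkbia (0.70), and of 19 antioxidant genes 6 did, led by Gclm (0.83) and Srxn1 (0.73). In glycolysis 1 of 8 did (12.5%), close to the share over all genes; it was Gapdh (0.80), and Pkm had 0.21 and Ldha 0.37.

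**Figure D3:**
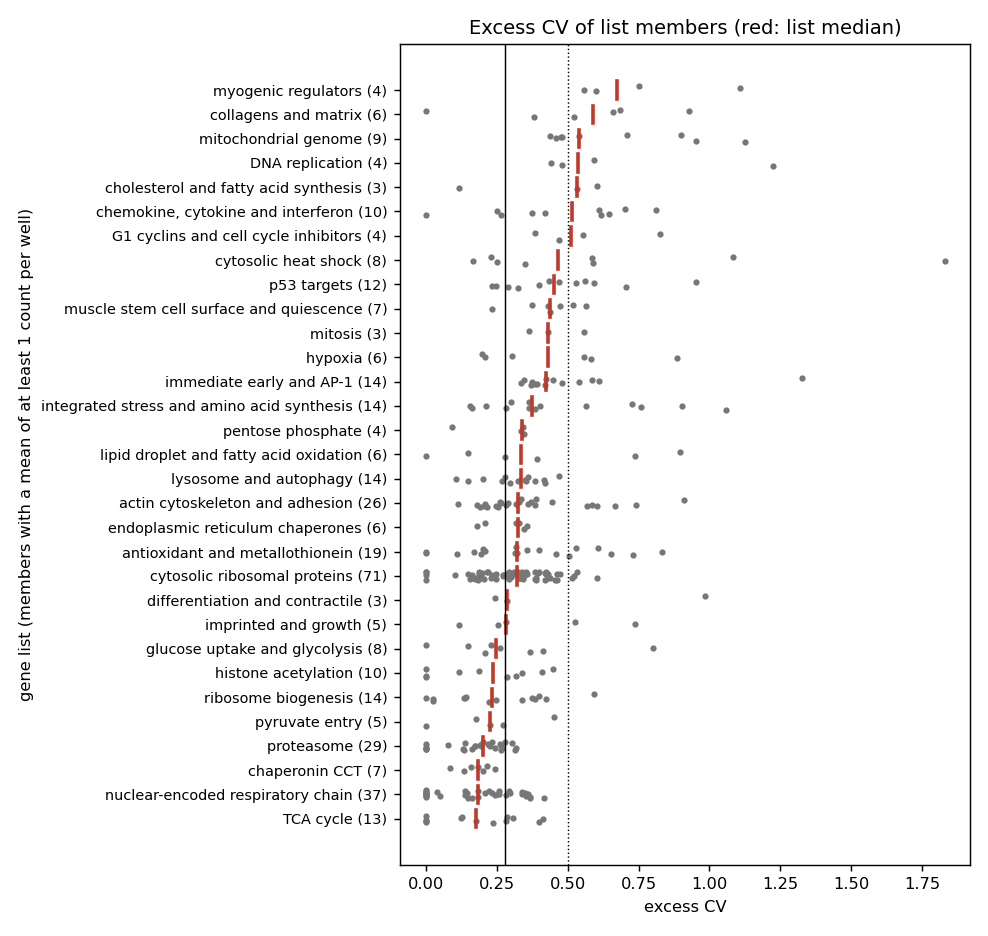
Excess CV (horizontal axis) of list members with a mean of at least 1 count per well (rows are gene lists, with the number of such members). Grey points are genes and red bars list medians. The solid line is the median of all protein-coding genes, 0.279, and the dotted line 0.5; TCA cycle and respiratory chain genes lie to the left and myogenic regulators to the right of the dotted line.

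Gene pairs that vary together were sought among 1096 protein-coding genes with a mean of at least 2 counts per well, as Pearson's r over the 120 wells of depth-scaled residuals. The wells share a library, a plate and a range of depths, and no p is given. Of 600060 pairs, 16812 reached 0.3 (2.80%) and 6026 reached -0.3 or lower (1.00%), with a median r of 0.03. Leaving out the 30 wells with the lowest gene to spike-in ratio gave 32864 pairs at 0.3 or more. Regressing that ratio out gave 8405, and median-of-ratios scaling gave 8490. In galactose wells 2.62% of the pairs reached 0.3. Of the low glucose pairs, 39.3% did so in galactose too, and of the galactose pairs 42.0% did so in low glucose.

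Transcripts of the mitochondrial genome, which is transcribed as long joint precursors, gave the highest pair and the tightest group. The r of mt-Nd4 with mt-Cytb was 0.89, between 0.86 and 0.92 within each of the 6 plate rows, and 0.84 in galactose and 0.89 in high glucose wells. In the well with least mt-Nd4 (530 CPM) mt-Cytb stood at 985 CPM, and in the well with most (4671 CPM) at 5766 CPM. Complex I members mt-Nd1 and mt-Nd4 had 0.80, mt-Nd1 and mt-Nd2 had 0.76, and mt-Nd2 and mt-Nd4 had 0.76. Complex IV members mt-Co1 and mt-Co3 had 0.77 and mt-Co1 and mt-Co2 had 0.74. Of 21 mitochondrial pairs 18 reached 0.3, with a median r of 0.63 (2.80% and 0.03 over all pairs). mt-Co1, mt-Co2 and mt-Co3 have near-identical copies elsewhere in the annotation.

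A group of nuclear genes followed the mitochondrial ones. Lamp1 and Cfl1 had an r of 0.86, from 0.73 to 0.92 over plate rows. In the well with least Lamp1 (1243 CPM) Cfl1 stood at 1953 CPM, and in the well with most (6748 CPM) at 6012 CPM. Lamp1 and mt-Cytb had 0.82, Cfl1 and mt-Cytb had 0.82, Lamp1 and the splicing-related protein gene Hnrnpc had 0.77, and Cfl1 and Hnrnpc had 0.77. Hnrnpc and the translation termination factor Gspt1 had 0.71, Ybx1 and Hcfc1 had 0.68, the purine synthesis enzyme Paics with Eif5a had 0.67, and the phosphatase subunit Ppp2cb with Pcbp2 had 0.65. In high glucose wells some of these pairs had lower values: Lamp1 with Cfl1 had 0.45, Ybx1 with Hcfc1 had 0.18 and Paics with Eif5a had 0.06; the high glucose wells had a median of 6747 counts, against 13371 here. With the leading component of variation, described below, taken out, Lamp1 with Cfl1 had 0.36, Lamp1 with mt-Cytb 0.22, Cfl1 with mt-Cytb 0.31, Lamp1 with Hnrnpc 0.12 and Cfl1 with Hnrnpc 0.20.

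Further named pairs shared Ppp1r15a. Polr2a, the largest subunit of RNA polymerase II, and Ppp1r15a had an r of 0.77, and Cdkn1a and Ppp1r15a had 0.73. The glutathione transferase gene Gsto1 and Ppp1r15a had 0.65, with row values from 0.07 to 0.85. On ranks of CPM, Polr2a with Ppp1r15a had 0.62 and Cdkn1a with Ppp1r15a had 0.76.

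The 5 lowest pairs set translation genes against the first group. Cfl1 and Tpt1, the translationally controlled tumour protein gene, had an r of -0.64, Tpt1 and mt-Cytb had -0.63, Eef2 and Cfl1 had -0.62, mt-Cytb and Rplp0 had -0.62, and Eef2 and mt-Cytb had -0.61. Each kept its sign within all 6 plate rows. With the leading component out they had -0.19, -0.17, -0.006, -0.05 and -0.03 in that order. In the well with most Tpt1 (2198 CPM) mt-Cytb stood at 1302 CPM, against a pool level of 3095 CPM. Among cytosolic ribosomal protein genes 640 of 1770 pairs reached 0.3 (36.2%), with a median r of 0.25, which was 0.07 with the leading component out.

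**Figure D4:**
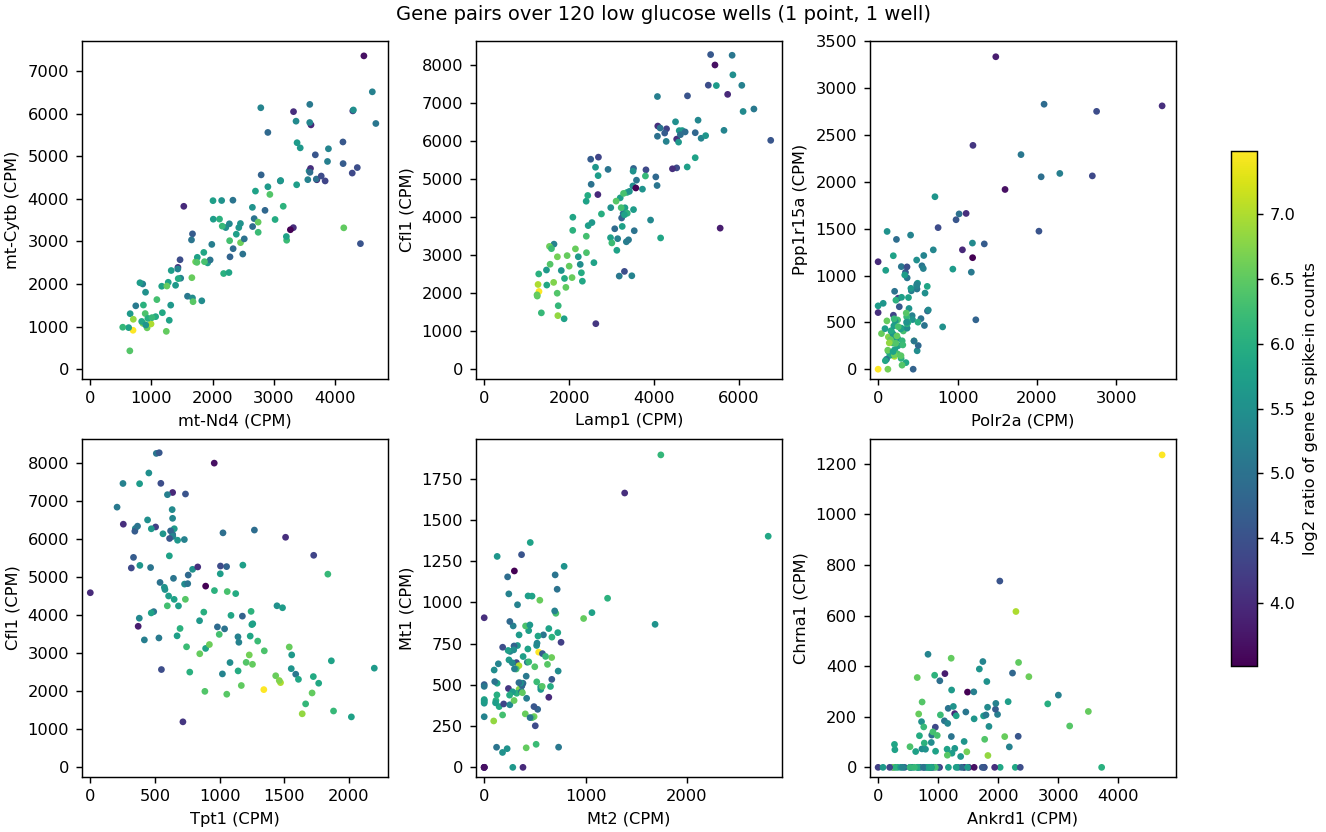
CPM of 2 genes per panel over the 120 low glucose wells; each point is a well, coloured by the log2 ratio of its gene to spike-in counts (lighter is higher). The points of mt-Nd4 with mt-Cytb and of Lamp1 with Cfl1 rise together, those of Tpt1 with Cfl1 fall, and light points lie at low Cfl1 and Lamp1.

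Members of these groups had high or low loadings on 1 shared axis, the leading component. The median r of the mitochondrial pairs was 0.63, and 0.67 with this axis taken out, but single pairs moved both ways. The r of mt-Nd4 with mt-Cytb went from 0.89 to 0.73 and that of mt-Nd2 with mt-Nd4 from 0.76 to 0.60. That of mt-Nd1 with mt-Co3 rose from 0.49 to 0.73. The leading principal component of the residuals took 11.7% of their variance (11.5% with rows centred), and the next took 3.04%. Ppp1r15a, Cdkn1a, mt-Cytb, Polr2a, Hspa1b, Lamp1, Cfl1, Hcfc1, Hnrnpc and mt-Nd4 had the highest loadings. Eef1a1, the lipid droplet protein gene Plin2, Eef2, Rpl10, Tpt1 and Rps16 had the lowest, and 14 of the 20 lowest were ribosomal protein genes. The list of cytosolic ribosomal proteins held 60 of the 1096 genes used. The score of a well had an r of -0.64 with its log2 ratio of gene to spike-in counts, of -0.25 with its log2 total and of 0.54 with its log2 spike-in counts. Wells with a high score had fewer gene counts per spike-in count. Cdkn1a had an r of -0.78 with that ratio, Lamp1 of -0.63 and Eef2 of 0.57. The part of RNA content or RNA quality in this axis was not tested. In galactose wells the leading component took 10.9%, and its loadings had an r of 0.92 over genes with those here. The low glucose loadings gave scores with an r of -0.56 with the same ratio in galactose and of -0.68 in high glucose.

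With the leading component taken out, an alternative chosen after the data were seen, 1055 pairs reached 0.3 (0.176%). The mitochondrial pairs stayed highest, with mt-Nd4 and mt-Cytb at 0.73, and Polr2a with Ppp1r15a stayed at 0.66. Among its 20 highest pairs were chaperone and ubiquitin genes: Hspa8 with Hsp90aa1 had 0.66 (0.50 before the component was taken out), Ubb with Hsp90aa1 0.55 (0.60 before) and Ubb with Hspa1b 0.52 (0.58 before). Without the 6 wells high in Hspa1b, and with the component kept, Hspa8 with Hsp90aa1 had 0.28, Ubb with Hsp90aa1 0.43 and Ubb with Hspa1b 0.41. Those wells were picked by Hspa1b, so the fall for Ubb with Hspa1b follows in part from that choice. On ranks Hspa8 with Hsp90aa1 had 0.14.

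Mt1 and Mt2, the neighbouring metallothionein genes, whose products bind zinc and copper, had an r of 0.54, and 0.53 in galactose and 0.57 in high glucose wells. Mt1 stood at 641 CPM (0 to 1894 CPM over wells) and Mt2 at 469 CPM (0 to 2801 CPM). The well with most Mt2 held 1401 CPM of Mt1. Metal-responsive transcription of both genes runs through short response elements upstream, so the 250 bases before each start are shown, with matches to the core TGCGCNC or TGCACNC on either strand in capitals. Mt1 is chr8:94178839-94179088 and Mt2 is chr8:94172368-94172617, both on the plus strand (RefSeq, GRCm38.p6).
Mt1: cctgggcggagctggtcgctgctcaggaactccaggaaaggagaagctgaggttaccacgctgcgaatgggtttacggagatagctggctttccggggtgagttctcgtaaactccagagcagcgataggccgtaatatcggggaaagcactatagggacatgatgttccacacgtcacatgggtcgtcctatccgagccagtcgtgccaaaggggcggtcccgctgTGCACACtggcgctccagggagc
Mt2: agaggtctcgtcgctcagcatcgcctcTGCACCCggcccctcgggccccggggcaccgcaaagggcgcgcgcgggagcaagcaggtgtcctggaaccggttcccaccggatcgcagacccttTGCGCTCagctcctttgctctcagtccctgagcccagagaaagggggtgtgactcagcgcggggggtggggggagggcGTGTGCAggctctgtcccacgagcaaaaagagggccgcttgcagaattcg
Mt1 holds 1 match and Mt2 holds 3, and 21.4% of the 32851 upstream stretches hold at least 1.

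Ankrd1, a mechanosensitive transcriptional cofactor of muscle, Chrna1 and the collagen gene Col5a2 gave a pair of further correlations. Ankrd1 and Chrna1 had an r of 0.52, and Ankrd1 and Col5a2 had 0.51. The well with most Ankrd1 (4726 CPM) was also the highest in Chrna1 (1235 CPM), and with 1 well left out the r of Ankrd1 and Chrna1 fell as low as 0.36. In galactose it was 0.33, in high glucose 0.21. Ankrd1 with Col5a2 ran from -0.21 to 0.76 over plate rows, had 0.28 on ranks and 0.18 on log2 values, and had 0.24 in galactose. Pairs picked by role, outside the naming rule, gave an r of 0.31 for Myod1 with Chrna1, 0.37 for Id1 with Id2 (0.20 with 1 well left out), 0.19 for Myod1 with Id2 and 0.13 for Myod1 with Myf5. On ranks these pairs had 0.30, 0.33, 0.43 and 0.30 in that order. Myod1 with Id2 had an r of 0.45 in galactose and 0.47 in high glucose, and Myod1 with Myf5 had 0.05 and -0.01.

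MyoD-family factors bind E-boxes, and CAGCTG is a form they favour. The bases upstream of Chrna1, chr2:73580339-73580588 on the minus strand (RefSeq, GRCm38.p6), hold 2 matches, in capitals below.
Chrna1: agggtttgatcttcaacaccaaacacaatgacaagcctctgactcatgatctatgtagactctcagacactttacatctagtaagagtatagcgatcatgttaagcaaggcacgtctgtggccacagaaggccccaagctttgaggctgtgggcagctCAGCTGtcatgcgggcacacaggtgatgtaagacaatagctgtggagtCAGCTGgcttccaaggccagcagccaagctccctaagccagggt
CAGCTG, its own reverse complement, was present upstream of 13.0% of the starts. Id2 holds 1 match and Ankrd1 none in this window.

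**Figure D5:**
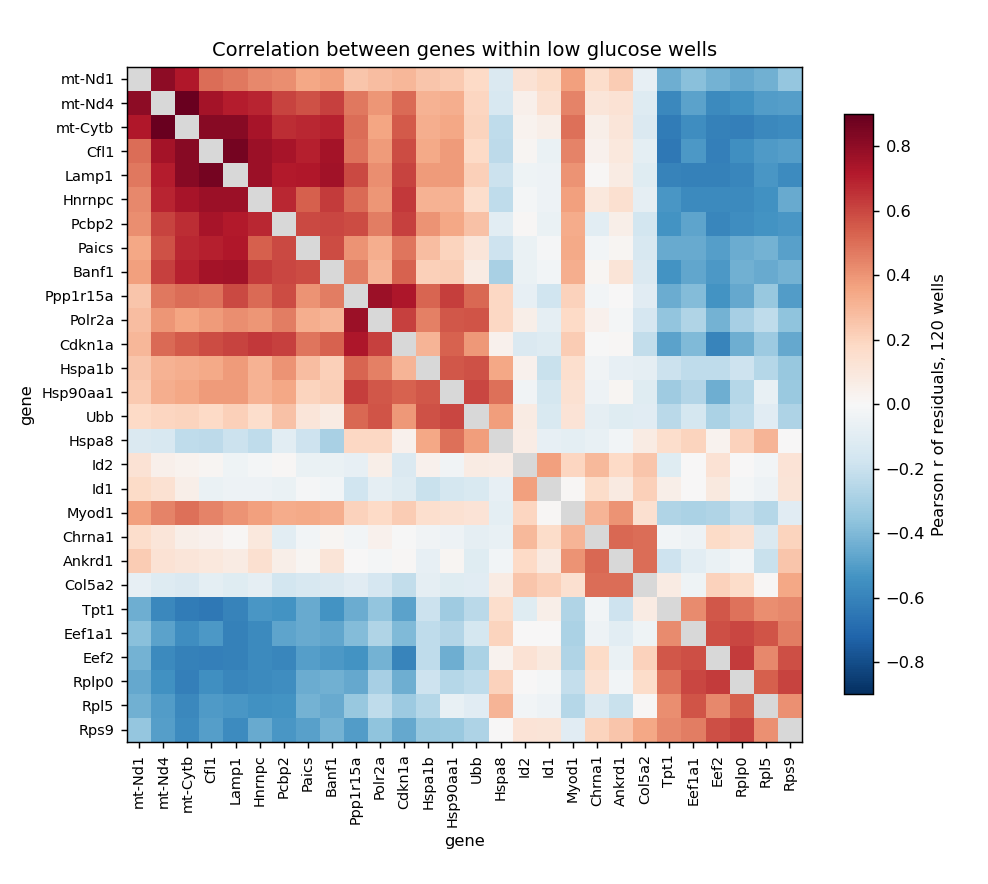
Pearson's r over the 120 low glucose wells for pairs among 28 named genes (rows and columns), red for positive and blue for negative, with the diagonal in grey. The mitochondrial, Cfl1 and Lamp1 block and the block around Ppp1r15a at the upper left stand against the translation block at the lower right, where Eef2 with Cfl1 is at -0.62; Chrna1, Ankrd1 and Col5a2 form a small block.

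The 21 differentiation and contractile genes in the table summed to 1018 CPM in the pool (167 to 1882 CPM over wells), of which Tpm3 (576 CPM), Tpm1 (227 CPM) and Chrna1 (156 CPM) made up most. Actb followed the sum most closely with an r of 0.42, then Lrpprc (0.37), Gnai2 (0.34) and Eno1 (0.34). The 30 DNA replication genes summed to 1090 CPM (272 to 5304 CPM over wells) with an excess CV of 0.33. The genes that followed them were Cnppd1 (0.57), Patl1 (0.49), Prdx1 (0.44), Nedd8 (0.42) and Cdkn1a (0.42). In galactose wells Cnppd1 had 0.19, Nedd8 -0.05 and Actb, with the differentiation sum, 0.20. Pcna, the replication clamp and itself a p53 target, had an r of 0.58 with Cdkn1a, and of 0.34 in galactose wells. With the leading component out it was 0.29, and that of Cdkn1a with the replication sum was 0.15. Cdkn1a with Mdm2, another p53 target, had 0.26. A part of p53 in these values was not tested.

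Against galactose wells, on the same plate, the pools lay close. Low glucose wells lay in plate rows A to F and most galactose wells in other rows. Medium and place on the plate therefore cannot be fully told apart. Of 3997 genes with a mean of at least 50 CPM, 7 (0.175%) were at least 1.5-fold higher in low glucose and 5 (0.125%) at least 1.5-fold lower. The golgin gene Gcc2 stood at 69.8 against 40.3 CPM (ratio 1.73, exact 95% interval 1.30 to 2.32, counting error only), the pseudokinase Trib1 at 103 against 63.9 CPM (1.61) and Ifrd1 at 83.0 against 53.1 CPM (1.57). Akr1b3 had a ratio of 1.31 (1.20 to 1.42) and Gpnmb of 1.43. Ccl2 stood at 231 against 348 CPM (0.66, 0.59 to 0.75), and its wells ran from 0 to 1230 CPM here and to 4372 CPM in galactose. Ifrd2 (0.57), Prkx (0.58) and Msrb3 (0.60) were also lower, and the matrix protein gene Sparc had 0.70. Wells of the 2 conditions overlapped for each of these genes. The count of 12 genes rose to 30 with plate row D left out and to 40 with equal weight per cell. On the gene lists, 1 of 16 immediate early genes was higher (Trib1) and 1 of 11 chemokine list genes lower (Ccl2). None of 10 glycolysis, 14 TCA cycle, 43 respiratory chain or 12 histone acetylation genes passed. With shares of 0.175% and 0.125% over all genes, lists of this size would seldom hold a passing gene, so this says little about them.

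Against high glucose wells, on plate 1, 359 of 4067 genes (8.83%) were at least 1.5-fold higher and 385 (9.47%) lower. Median-of-ratios scaling moved the median log2 ratio from 0.00 to -0.27 and the split to 97 higher and 941 lower, so calls near 1.5-fold depend on the scale. Ass1 had a ratio of 3.95 (2.60 to 6.26), the adaptor Gipc1 of 3.56, Sdr39u1 of 2.84, Lasp1 of 2.54 and the chromatin protein Banf1 of 2.16. Timp3, an inhibitor of matrix proteases, had 0.11 (0.063 to 0.19), the secreted peroxidase Gpx3 had 0.24, the mitochondrial Hsp70 gene Hspa9 had 0.27, Hspa1b had 0.28 and the kinase Pim1 had 0.30. Hspa1b stood at 212 CPM here and 767 CPM there, where its highest well reached 18293 CPM. Plate, depth and medium cannot be told apart in this comparison.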

How the data were processed

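RNA of single mouse muscle stem cells was measured with a modified CEL-Seq2 protocol on 2 plates, per the labels. The authors deposited raw counts per gene and well, whole numbers with no normalization, and a well sheet that gives each well's condition and barcode (a deposited table of other values, used only as labels). The sources used here do not give the aligner, the counter, the genome build or any collapse of UMIs.

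Wells with at least 500 gene counts and 250 genes were kept, without ERCC rows. The members and lists were chosen with earlier results of these data known. Of 21216 identifiers, 99.6% received a symbol from GENCODE M21; the rest held 0.215% of low glucose counts and stayed in totals. No doublet caller was run. Counts were summed into pools and scaled to CPM. Excess CV is the root of the sum of (count minus expected) squared minus count, over the sum of expected squared, with negative values set to 0 and expected the well total times the pool share. Residuals were divided by the root of m + 0.1 m squared (m, expected count). Pairs of genes that overlap or share at least 20 words of 31 bases were not named. A gene was marked as having near-identical copies where at least 50% of the words in its last 500 bases occur in another gene. Ratios carry exact conditional 95% intervals, and detection after thinning used 1000 counts per well.

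Named were the 20 protein-coding genes with most counts and all mitochondrial transcripts, the 20 most and 5 least variable, the 20 highest and 5 lowest pairs (at most 3 per gene), up to 4 members of each list, 10 followers of 2 lists, 5 higher and 5 lower genes per comparison, and core muscle stem cell genes; some are left out of the text, and 3 of them are not reported here. Alternatives were scaling, depth, thinning, minimum counts, left-out rows and wells, weights, ranks and regressions. The steps were tested on simulated data. Python 3.11.15, numpy 2.4.6 and scipy 1.17.1 were used.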

Additional observations from a re-analysis of the deposited data

How the results depend on the processing

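Thinning every well to 2000 counts changed most counts: 999 genes (732 protein-coding) then had an excess CV of at least 0.5, 1352 pairs reached 0.3, 678 genes stood 1.5-fold from galactose and 1222 from high glucose, and the ratio of Gpnmb to galactose turned to 0.78. For the excess CV, spike-in scaling gave 1453 (802), a minimum mean of 5 counts 57 of 499 (24 of 317), equal weight per well 708 (459), and each gene's top well left out 242 (112). Pairs at 0.3 or more numbered 8490 with median-of-ratios factors, 32864 without the 30 wells lowest in gene to spike-in ratio, 8405 with that ratio regressed out, 1055 with the leading component out, and 4682 of 50086 at a minimum mean of 5 counts. The 12 genes apart from galactose became 23 without the wells that hold markers of another cell type, 19, 20, 30 and 22 without plate rows B, C, D and E, 40 with equal weight per cell and 511 at a minimum of 10 CPM; at that minimum 2465 stood apart from high glucose. Genes in at least 50% of wells numbered 57 after thinning to 500 counts, 469 at 2000 and 3593 unthinned. The cause of these changes was not tested. No other direction turned among the named pairs and ratios under the alternatives run, and 19 of the 20 genes with most counts stayed with equal weight per cell. An excess CV has no direction that could turn. Of 375 values for the named genes under the alternatives, 39 lay more than 1.5-fold from the main value. Leaving out low-ratio wells, single top wells, the leading component or genes with near-identical copies, and regressing the ratio out, were chosen after seeing the data. Depth limits genes under 1 count per well, for which no variation is given. No paired analysis was possible because each condition comes from 1 library and its values come from no test.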
